A study of Rattus norvegicus with 16 samples.

Results

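The miR-29 family of the rat consists of the mature miRNAs miR-29a, miR-29b and miR-29c. Its 3 members (rno-miR-29a, rno-miR-29b and rno-miR-29c in the files) were taken by name from the 677 rat miRNAs on an Agilent array, and all 3 were detected on all 16 arrays. The arrays held hearts taken on day 2 after birth from HHR males, HHR females, NHR males and NHR females, 4 animals per group. Each animal had a one-colour array of its own, without pooling. HHR, the Hypertrophic Heart Rat, is an inbred line in which an enlarged heart is inherited through several genes, and NHR, the Normal Heart Rat, is its counterpart with hearts of normal size. No animal was treated, and the strains differ at many loci, so a strain difference cannot be assigned to one of them. By one label the tissue was the entire heart, by another the ventricles without the atria. In such bulk tissue, fewer cells of a type and less miRNA per cell cannot be told apart.

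A miRNA guides the silencing machinery to messenger RNAs that pair with its seed, the bases 2 to 8 from its 5′ end. The miR-29 family is known for lowering the messenger RNAs of extracellular matrix proteins, among them collagens, elastin and fibrillin, and loss of its members accompanies cardiac fibrosis after infarction in mice. In the heart it is known to be more abundant in fibroblasts than in cardiac muscle cells, and TGF-β lowers its level in cultured fibroblasts. Further known targets are the DNA methyltransferases Dnmt3a and Dnmt3b and the anti-apoptotic protein Mcl1.

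The mature sequences below, from RefSeq on the GRCr8 assembly, are shown because the family is defined by a shared seed and its members differ only in a few other bases. Capitals mark the seed.
miR-29a-3p: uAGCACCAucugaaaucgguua
miR-29c-3p: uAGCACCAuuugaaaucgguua
miR-29b-3p: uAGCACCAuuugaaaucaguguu
All 3 array names matched an entry of the RefSeq table, where the guide strand is named with the ending 3p. Among the 693 rat mature miRNAs in that table, 3 carry the seed AGCACCA (0.433%), and these are the 3 members. Counted from the 5′ end, miR-29a and miR-29c differ by C10U alone, 1 of 22 positions. miR-29c and miR-29b differ by G18A, U21G and A22U, 3 of the 22 positions compared, and miR-29b has 1 further base at its 3′ end. The ending AGUGUU of miR-29b is known in human cells as a signal that sends miR-29b to the nucleus. Searched for on the given strand, this motif occurs in 8 of the 693 rat mature miRNAs (1.15%) and stands at the 3′ end of 2, miR-29b-3p and miR-92b-5p.

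The members come from 4 hairpins at 2 loci. The hairpins are shown with the mature guide strand in capitals, because Mir29b1 and Mir29b2 differ outside it and yield the same miR-29b.
Mir29a: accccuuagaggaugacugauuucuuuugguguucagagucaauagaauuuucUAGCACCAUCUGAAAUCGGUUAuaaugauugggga
Mir29b1: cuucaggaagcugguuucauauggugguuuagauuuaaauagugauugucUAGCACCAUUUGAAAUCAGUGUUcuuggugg
Mir29b2: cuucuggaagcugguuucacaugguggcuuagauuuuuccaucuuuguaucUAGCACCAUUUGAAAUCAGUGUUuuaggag
Mir29c: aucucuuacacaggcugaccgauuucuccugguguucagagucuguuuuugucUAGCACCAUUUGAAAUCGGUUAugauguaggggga
On the minus strand of chromosome 4, Mir29a (chr4:60617955-60618042) and Mir29b1 (chr4:60618334-60618414) are separated by 291 bases. On the plus strand of chromosome 13, Mir29b2 (chr13:109098831-109098911) and Mir29c (chr13:109099359-109099446) are separated by 447 bases and overlap the annotated long noncoding RNA gene LOC102550527. The array measures the mature strand, so its miR-29b signal does not tell these hairpins apart.

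Each member was read by 2 probes with 20 spots per array in all. Levels are log2 values of the background-subtracted spot signal after each array was scaled to the 75th percentile of the probes well above background on every array. Probes bind with different efficiency, so a level serves to compare arrays for one miRNA and not one miRNA with another. The members differ by few bases, and whether a probe of 1 member also binds another was not tested. For miR-29c, 320 of 320 spots were well above background (100%). For miR-29b it was 257 of 320 spots (80.3%) and for miR-29a 165 of 320 (51.6%). In miR-29a the shortfall lay in 1 probe, which was well above background at 6 of 160 spots, against 159 of 160 for the other. In miR-29b it lay in 1 probe as well, at 97 of 160 spots against 160 of 160. That probe of miR-29b was well above background at 4 to 10 of 10 spots on HHR arrays and at 0 to 10 on NHR arrays. The part of this in the wider NHR spread of miR-29b was not tested. The median coefficient of variation among spots of a probe was 4.67% and 5.32% for the probes of miR-29c, 18.1% and 8.08% for those of miR-29b, and 27.8% and 12.2% for those of miR-29a. The measurement was thus tightest for miR-29c and loosest for miR-29a.

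Between 200 and 239 miRNAs were detected per array, and no spot was saturated. Before scaling, HHR arrays were brighter than NHR arrays, with a 75th percentile of signal of 469.6 ± 37.3 on HHR arrays and 378.4 ± 87.3 on NHR arrays (SD, n = 8 each). Fits with this brightness as a covariate stand beside the differences between the strains. The arrays lay on 2 slides, each with 2 arrays of every group. The number of arrays, 4 per group, limits the precision.

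The first comparison asked whether the family differs between the newborn hearts of the strains. miR-29c, which targets matrix transcripts through the family's seed, was 1.11-fold lower in HHR hearts, in both sexes, although the sign turned positive under 4 of 5 other array scalings. miR-29a had a difference of similar size but wider spread and did not pass the test. miR-29b had nearly the same mean in both strains. Of the 3 members, 0 were higher and 1 was lower, with a median difference of -0.15, against -0.11 over all 233 tested miRNAs. Among those 233, 127 passed (54.5%), 21 as higher (9.01%) and 106 as lower (45.5%), so 1 lower member of 3 lies near the background.

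**Figure D1:**
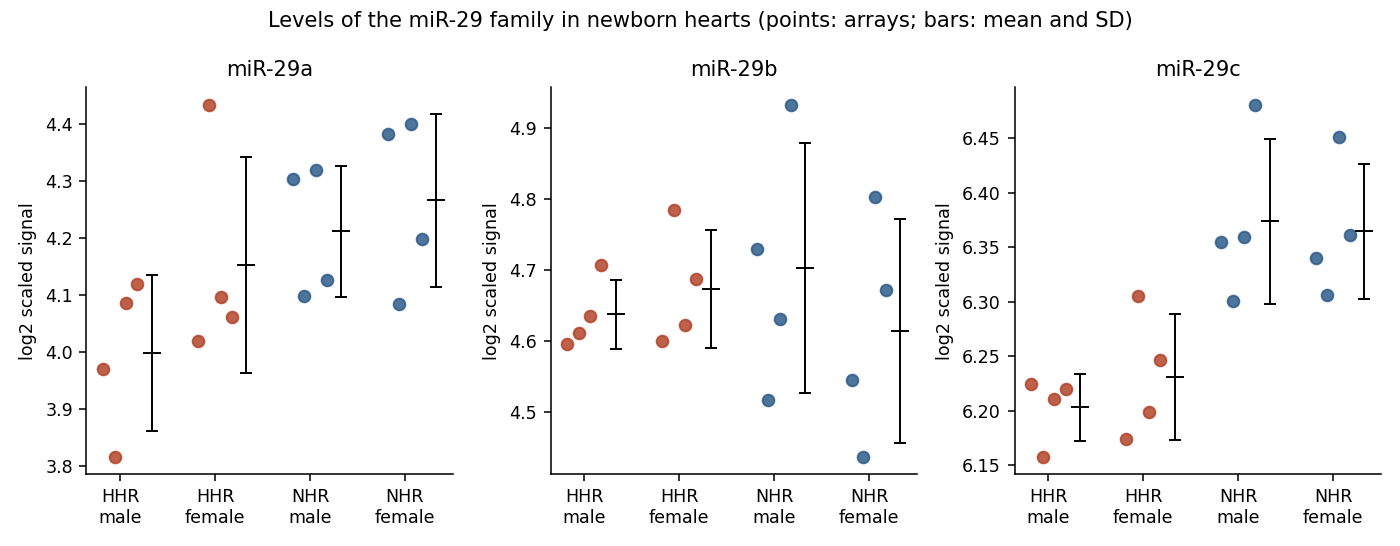
Level of each member (log2 scaled signal, a separate axis range per panel) by group, with 1 point per array and the group's mean and SD beside the points. For miR-29c, 7 of 8 HHR arrays lie below all NHR arrays under this scaling, a direction that turns under 4 of 5 other scalings; for miR-29b the NHR arrays spread around the HHR arrays.

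miR-29c stood at 6.22, 6.16, 6.21 and 6.22 in HHR males and at 6.17, 6.31, 6.20 and 6.25 in HHR females, against 6.35, 6.30, 6.36 and 6.48 in NHR males and 6.34, 6.31, 6.45 and 6.36 in NHR females. All 8 HHR arrays lay below the NHR median, and 7 of them lay below every NHR array, the exception being HHR female 2, just above NHR male 2. Non-overlap of the strains was seen for 33 of the 233 tested miRNAs (14.2%) and for none of the members. The means were 6.22 ± 0.045 in HHR and 6.37 ± 0.064 in NHR (SD; n = 8 per strain), and the difference was -0.15 ± 0.031 (SE, 95% interval -0.22 to -0.084, limma with Benjamini-Hochberg adjustment over 233 miRNAs, adjusted p = 0.00132). Each of its 2 probes, fitted alone, gave a similar value, -0.16 ± 0.027 and -0.15 ± 0.032 (limma adjusted p over 1644 probes = 0.00176 and 0.00996). The difference was -0.11 within slide 1 (limma adjusted p = 0.116) and -0.19 within slide 2 (adjusted p = 0.0380), 4 HHR arrays against 4 NHR arrays on each. With array brightness before scaling as a covariate it was -0.18 ± 0.038 (limma adjusted p = 0.00375).

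miR-29a, the member that differs from miR-29c by a single base, stood at 3.97, 3.82, 4.09 and 4.12 in HHR males and at 4.02, 4.43, 4.10 and 4.06 in HHR females, against 4.30, 4.10, 4.32 and 4.13 in NHR males and 4.38, 4.08, 4.40 and 4.20 in NHR females. The strains overlapped: 7 of 8 HHR arrays lay below the NHR median and 4 below every NHR array, while HHR female 2 lay above all NHR arrays. The means were 4.08 ± 0.17 in HHR and 4.24 ± 0.13 in NHR (SD over 8 arrays each). The difference of -0.16 ± 0.073 (SE, 95% interval -0.32 to -0.0079) had a limma p of 0.0408 and did not pass after adjustment (adjusted p = 0.0710). It passed without HHR female 2 (-0.21, limma adjusted p = 0.0157) or without NHR female 2 (-0.19, adjusted p = 0.0400), and leaving out each array in turn gave adjusted p up to 0.131. Its brighter probe alone gave -0.15 ± 0.074 (limma adjusted p over 1644 probes = 0.293). The difference was -0.16 within slide 1 and -0.17 within slide 2 (limma adjusted p = 0.356 and 0.130), and -0.15 ± 0.094 with brightness as a covariate (adjusted p = 0.271).

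miR-29b, the member with the nuclear ending, stood at 4.60, 4.61, 4.64 and 4.71 in HHR males and at 4.60, 4.78, 4.62 and 4.69 in HHR females, against 4.73, 4.52, 4.63 and 4.93 in NHR males and 4.55, 4.44, 4.80 and 4.67 in NHR females. The HHR arrays lay within the NHR range, with 2 NHR arrays above and 3 below all of them. The means were 4.66 ± 0.066 in HHR and 4.66 ± 0.16 in NHR (SD; n = 8 per strain), and the difference was -0.0029 ± 0.062 (SE, limma adjusted p = 0.971). Its 95% interval ran from -0.14 to 0.13, and with brightness as a covariate the difference was -0.056 (adjusted p = 0.634). Within slide 1 the difference was 0.091 and within slide 2 -0.096, neither past the test (limma adjusted p = 0.351 and 0.400).

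Ordered by strain difference from the lowest, miR-29a ranked 80th, miR-29c 82nd and miR-29b 172nd of the 233 tested miRNAs. The median of all tested differences was -0.11. Relative to it, miR-29a lay at -0.058, miR-29c at -0.046 and miR-29b at 0.10. The standard error of miR-29c, 0.031, was small for this table, with 24.5% of tested miRNAs below it and a median of 0.059. The members' differences thus lie in the dense middle of the distribution.

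**Figure D2:**
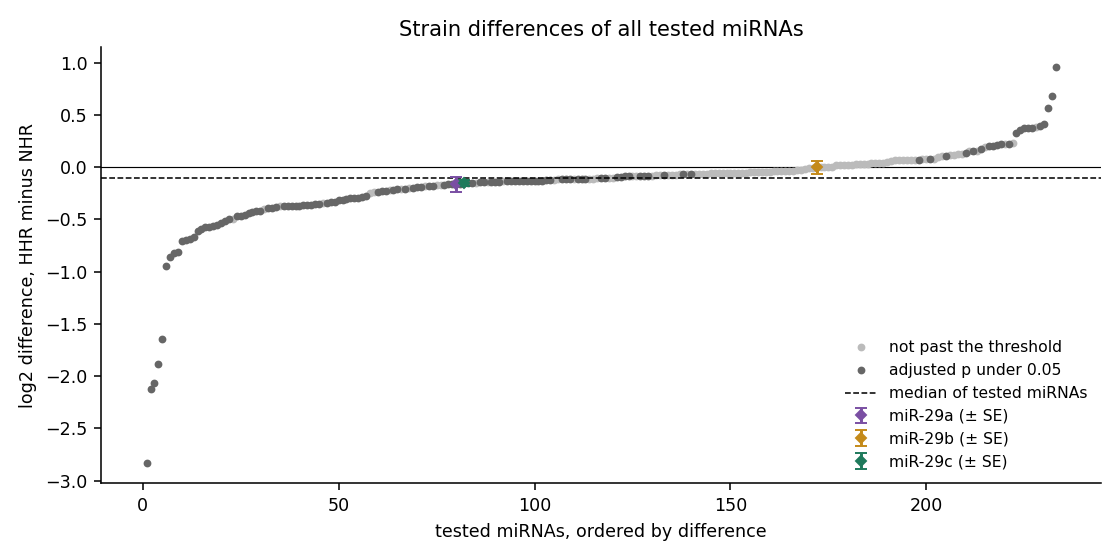
Strain difference (log2, HHR minus NHR) of the 233 tested miRNAs in order of size, with the members as diamonds (bars: SE), dark points for miRNAs past the threshold and a dashed line at the median of -0.11. miR-29a and miR-29c stand side by side just below the median and miR-29b above it; the signs of miR-29a and miR-29c turn under other scalings.

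How the arrays were put on a common scale set the sign of these differences. Under the 5 other scalings the median of all tested miRNAs was 0.022 with quantile normalization, 0.068 with median centring, 0.13 with spike-in scaling, 0.17 when the percentile was taken over every probe and 0.23 without scaling. miR-29c was positive under the last 4 of these, from 0.022 to 0.19, and at -0.048 with quantile normalization, and it passed the test under none of the 5. miR-29a was positive under all 5, from 0.010 to 0.18, and passed under none. miR-29b was positive under all 5, from 0.15 to 0.34, and passed as higher with median centring (limma adjusted p = 0.0452) and with the percentile of every probe (adjusted p = 0.00363). Of all 233 tested miRNAs, 60 passed as higher with median centring and 134 with the percentile of every probe.

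The members were also set against the median of all tested miRNAs. Of the 5 other scalings, all but quantile normalization multiply an array by a single factor, so this distance is nearly fixed by construction and says nothing about stability. miR-29b lay above that median under the reported and all 5 other scalings, by 0.10 to 0.13. miR-29c lay below it under the same 6, by -0.069 to -0.042. miR-29a lay below it under 5, by -0.058 to -0.054, and at 0.011 above it with quantile normalization. Where the signal itself was changed, the distance of miR-29c went either way. With the scanner's total gene signal the distances were -0.086 for miR-29a, 0.073 for miR-29b and -0.076 for miR-29c. With a normexp background, a model-based correction of the median spot signal, they were -0.030 for miR-29a, 0.013 for miR-29b and 0.020 for miR-29c. From the authors' deposited table, fitted in the same way, they were -0.028, 0.0086 and 0.012 in the same order of members.

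**Figure D3:**
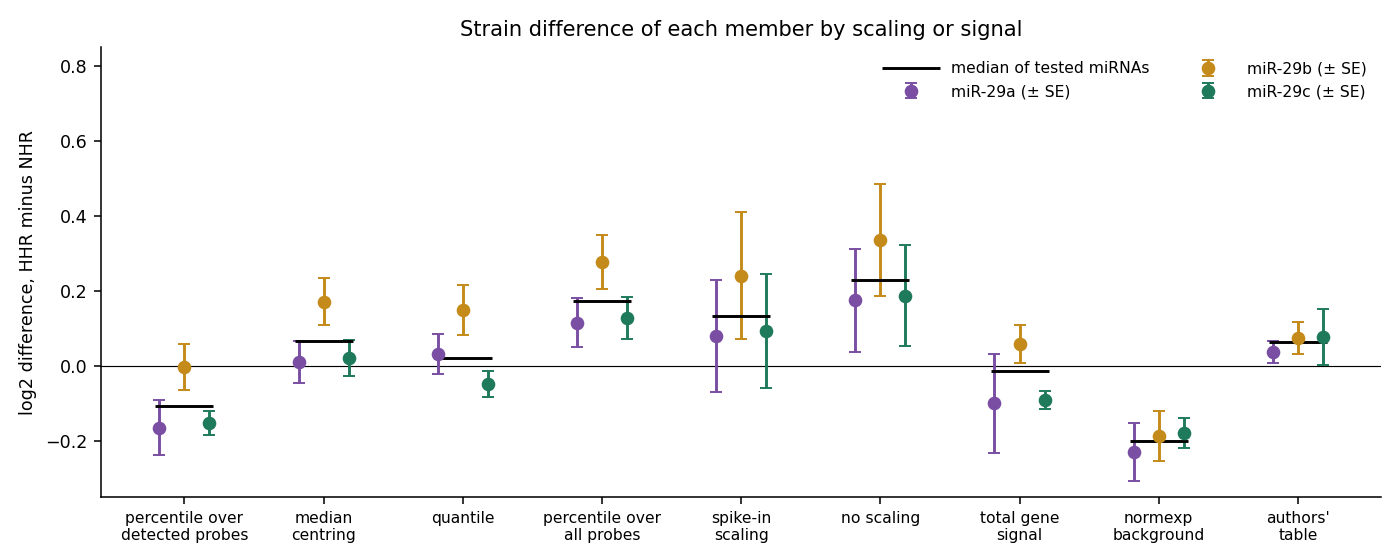
Strain difference (log2, HHR minus NHR) of each member with its SE under the reported scaling (left) and 8 other choices of scaling or signal; horizontal bars mark the median of the 233 tested miRNAs. Every member's sign turns between choices. miR-29b lies above the median bar in each choice shown, a distance nearly fixed by construction wherever an array is multiplied by a single factor. This distance was 0.013 with a normexp background and 0.0086 in the authors' table. Within a slide, not shown, it was 0.21 on slide 1 and -0.021 on slide 2.

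A ratio of members within an array does not depend on the factor by which the array is scaled. It was used to ask whether the members differ in their strain difference, by subtracting the log2 level of one member from every miRNA on each array before the fit. Only its change between strains can be read, since the probes differ in efficiency. The log2 ratio of miR-29c to miR-29b was 1.63, 1.55, 1.58 and 1.51 in HHR males and 1.57, 1.52, 1.58 and 1.56 in HHR females, against 1.63, 1.78, 1.73 and 1.55 in NHR males and 1.79, 1.87, 1.65 and 1.69 in NHR females. The HHR arrays lay close together and the NHR arrays reached higher, with NHR male 1 and NHR male 4 inside the HHR range. The means were 1.56 ± 0.036 in HHR and 1.71 ± 0.10 in NHR (SD; n = 8 per strain). The difference, -0.15 ± 0.052 (SE, 95% interval -0.26 to -0.038), had a limma p of 0.0120 and did not pass after adjustment over 232 miRNAs (adjusted p = 0.0558), where 48 passed (20.7%).

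This ratio stood close to the threshold. It passed without NHR female 3 (-0.17, limma adjusted p = 0.0237) or NHR male 4 (-0.17, adjusted p = 0.0095), and with the slide as a block (-0.15, adjusted p = 0.0396). It was -0.20 within slide 1 (limma adjusted p = 0.0364) and -0.097 within slide 2 (adjusted p = 0.799), and -0.12 with array brightness as a covariate (adjusted p = 0.331). With a normexp background it was 0.0067 and, fitted to the authors' deposited table, it was 0.0032.

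The ratio of miR-29b to miR-29a averaged 0.58 ± 0.12 in HHR and 0.42 ± 0.18 in NHR (SD; n = 8 per strain), a difference of 0.16 ± 0.079 (SE, 95% interval -0.0071 to 0.33). It did not pass (limma adjusted p = 0.166, where 56 of 232 passed, 24.1%), but did without NHR male 4 (0.21, adjusted p = 0.0372). The ratio of miR-29c to miR-29a averaged 2.14 ± 0.14 in HHR and 2.13 ± 0.13 in NHR, a difference of 0.012 ± 0.073 (limma adjusted p = 0.912). Its 95% interval, -0.14 to 0.17, bounds how far the strain differences in the measured signals of these 2 members can lie apart. Under the reported settings no pair of members passed the test of unequal change.

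**Figure D4:**
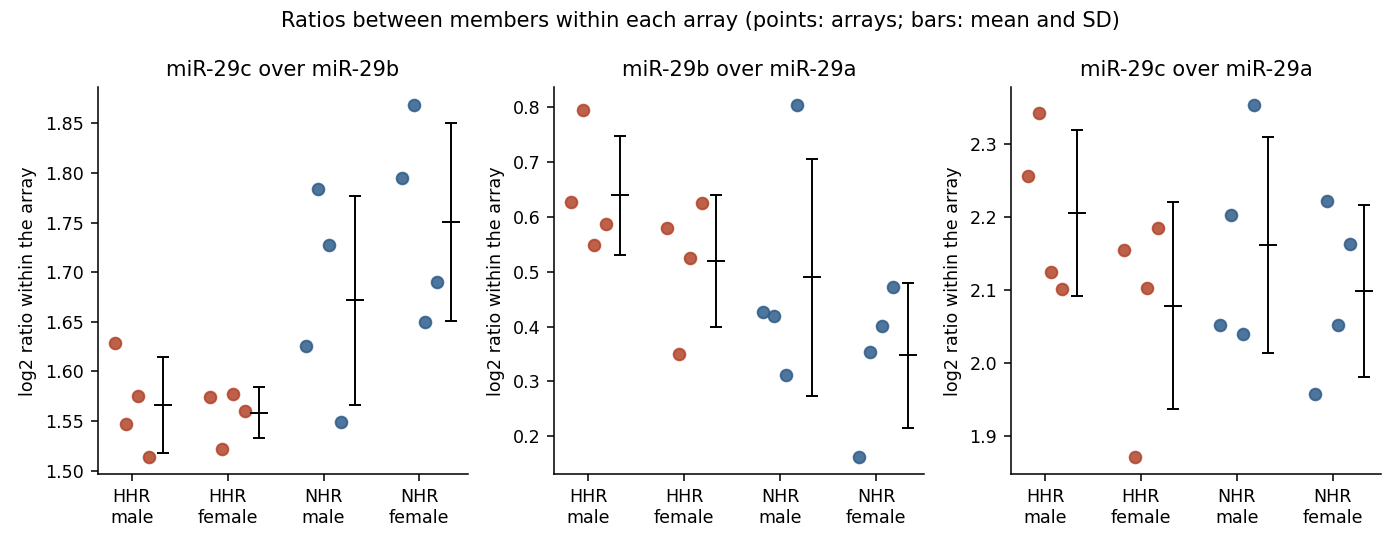
Log2 ratio between members within each array by group, with 1 point per array and the group's mean and SD beside the points (a separate axis range per panel). The ratio of miR-29c to miR-29b spans 1.51 to 1.63 in HHR and 1.55 to 1.87 in NHR, while the ratio of miR-29c to miR-29a covers about the same range in both.

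The next comparisons asked whether the strain difference is seen in each sex and whether sex itself matters. Among males, miR-29c averaged 6.20 ± 0.031 in HHR and 6.37 ± 0.076 in NHR (SD; n = 4 per strain), a difference of -0.17 ± 0.044 (SE, limma adjusted p = 0.0149, where 20.6% of tested miRNAs passed and 16.7% did so as lower). Among females it averaged 6.23 ± 0.058 in HHR and 6.36 ± 0.062 in NHR, a difference of -0.13 ± 0.044 (adjusted p = 0.0289, where 45.1% passed and 38.6% did so as lower). The female call was lost without HHR female 1 or 3 or NHR female 3 or 4 (-0.13 to -0.10, limma adjusted p from 0.0563 to 0.0785). Under the 5 other scalings the call was lost in both sexes, and the sign turned positive under all 5 in females and under 3 in males, where quantile normalization gave -0.098 and median centring -0.039.

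Under the reported scaling miR-29a and miR-29b passed in neither sex. In males their differences were -0.21 ± 0.10 and -0.065 ± 0.087 (SE, limma adjusted p = 0.150 and 0.604). In females they were -0.11 ± 0.10 and 0.059 ± 0.087 (adjusted p = 0.359 and 0.585). The test of the difference between the sexes, male minus female strain difference, gave -0.10 ± 0.15 for miR-29a, -0.12 ± 0.12 for miR-29b and -0.037 ± 0.063 for miR-29c (limma adjusted p = 0.943, 0.931 and 0.954). No miRNA passed that test in limma (0 of 233, 0.0%), and 9 (3.86%) had an unadjusted p under 0.05.

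Between the sexes, over both strains, the male minus female difference was -0.10 ± 0.073 for miR-29a, 0.026 ± 0.062 for miR-29b and -0.0093 ± 0.031 for miR-29c (SE, limma adjusted p = 0.887, 0.970 and 0.983). The 95% interval of miR-29c, -0.077 to 0.058, is the narrowest of the 3. Again no miRNA passed in limma (0 of 233, 0.0%), and 23 (9.87%) had an unadjusted p under 0.05.

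The next values describe how the members varied from animal to animal within a group. After the mean of each group was subtracted, miR-29b and miR-29c moved together over the 16 arrays (r = 0.913), with r = 0.834 in the 8 HHR arrays and 0.959 in the 8 NHR arrays. The value was 0.826 on slide 1, 0.951 on slide 2 and 0.821 without the 2 arrays farthest from the median of miR-29b. The deviations of NHR male 4 were 0.23 for miR-29b and 0.11 for miR-29c, and those of NHR male 2 were -0.19 and -0.073, so the same arrays are high or low for both.

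For miR-29a, r was 0.512 with miR-29c and 0.426 with miR-29b over the 16 arrays, and 0.264 and 0.219 without the 2 arrays farthest from the median of miR-29a. Leaving out extreme arrays tends by itself to lower r, so the fall does not show that the correlations rest on those arrays. In the HHR arrays the correlations of miR-29a with miR-29c and miR-29b were 0.851 and 0.842, and in the NHR arrays 0.277 and 0.309. All 3 pairs were thus alike in HHR, and no difference between correlations was tested. By slide they were 0.820 and 0.751 on slide 1, and 0.026 and -0.054 on slide 2. HHR female 2 was the highest HHR array for all 3 members, with deviations of 0.28 for miR-29a, 0.11 for miR-29b and 0.074 for miR-29c. The points of such a correlation share the array, its scaling and its brightness.

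**Figure D5:**
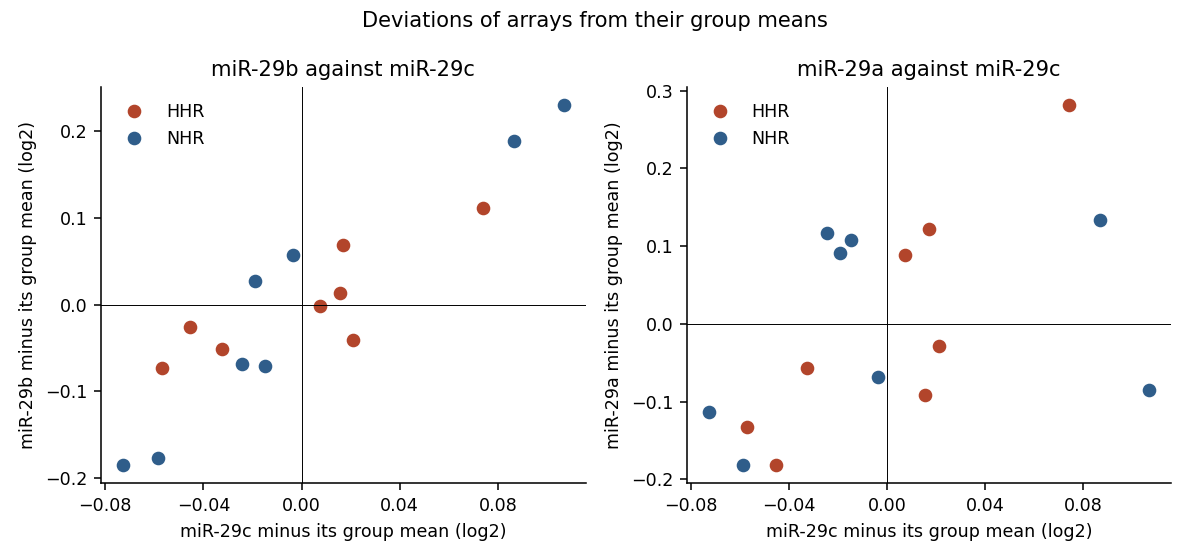
Deviation of each array from its group mean (log2) for miR-29b against miR-29c (left) and miR-29a against miR-29c (right), with 1 point per array coloured by strain. The left panel forms a line (r = 0.913, 16 arrays) and the right panel is scattered (r = 0.512).

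The 2 probes of a member give a check on how far such deviations are measured. With group means removed, the probes of miR-29c agreed at r = 0.884, those of miR-29b at 0.777 and those of miR-29a at 0.568 over the 16 arrays. The lower value for miR-29a goes with its dim probe, and the part of that probe in the relation of miR-29a to the others was not tested.

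Outside the family, the miRNAs whose deviations were most like a member's were sought among 183 others detected on all arrays, as a description. For miR-29a they were miR-26b (r = 0.854), miR-152 (0.819) and miR-431 (0.810), against a median r of 0.222 over the 183. For miR-29c they were miR-101b (0.707), miR-431 (0.681) and miR-144 (0.647), against a median of 0.062. For miR-29b they were miR-532-5p (0.689), miR-652* (0.676) and miR-101b (0.665), against a median of 0.118. miR-29b and miR-29c were closer to each other than to any of these. Of these miRNAs, miR-431 was higher in HHR (0.33 ± 0.085, limma adjusted p = 0.00633) and miR-532-5p lower (-0.59 ± 0.029, adjusted p = 1.32e-09).

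The other strand of each hairpin, the passenger strand, is usually degraded. miR-29a*, miR-29b-1*, miR-29b-2* and miR-29c* were detected on 0 of 16 arrays, with 0 of 320 spots well above background for each. Their scaled signals, on the linear scale, ranged from -0.21 to 1.97 for miR-29a*, -0.27 to 2.55 for miR-29b-1*, -2.12 to 0.53 for miR-29b-2* and 2.99 to 5.81 for miR-29c*. The 2 miR-29b passenger strands would have told the chromosome 4 and chromosome 13 loci apart, and at these signals they did not. miR-3556a, miR-3587 and miR-3556b, whose genes overlap the Mir29a, Mir29b1 and Mir29c hairpins in the annotation, were also detected on 0 arrays.

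Other miRNAs reported to act on fibrosis were set beside the family. Of 9 miRNAs reported to restrain it, all were tested, 0 were higher and 4 were lower in HHR, close to the 45.5% lower among all tested miRNAs, with a median difference of -0.059 against -0.11 over all tested. miR-30c and miR-133b, known to target connective tissue growth factor in the heart, were at -0.15 ± 0.023 and -0.15 ± 0.031 (SE, limma adjusted p = 1.32e-04 and 0.00132). miR-24, known to act on furin and so on TGF-β processing, was at -0.13 ± 0.026 (adjusted p = 0.00117), and miR-26a at -0.087 ± 0.029 (adjusted p = 0.0215). miR-101a, miR-101b, miR-26b, miR-19b and miR-133a did not pass, at -0.023, 0.067, -0.042, 0.033 and -0.059. Under the other scalings the counts of higher and lower were 4 and 0 with median centring, 1 and 0 without scaling, 9 and 0 with the percentile of every probe, 3 and 2 with quantile normalization and 0 and 0 with spike-in scaling. Among all 233 tested miRNAs they were, in the same order, 60 and 27, 38 and 10, 134 and 21, 57 and 38, and 15 and 10.

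Of 10 miRNAs reported to promote fibrosis, 9 are on the array, 7 were tested, 2 were higher and 2 were lower (9.01% and 45.5% among all tested), with a median difference of 0.12. miR-34a, a p53-induced miRNA, was higher (0.96 ± 0.048, SE, limma adjusted p = 1.52e-09), and miR-199a-5p, made from the Dnm3os transcript, was higher too (0.20 ± 0.072, adjusted p = 0.0335). miR-21, which raises kinase signalling in cardiac fibroblasts of mice, was at -0.13 ± 0.029 (adjusted p = 0.00252), and miR-22 at -0.17 ± 0.034 (adjusted p = 0.00132). miR-214, miR-199a-3p and miR-125b-5p did not pass, at 0.16, 0.12 and -0.074. miR-433 and miR-208 were detected on no array. The counts were 4 higher and 0 lower without scaling, with median centring or with quantile normalization, 7 and 0 with the percentile of every probe and 2 and 0 with spike-in scaling, so the lower calls of miR-21 and miR-22 were lost under all 5. They are to be read beside the counts among all tested miRNAs given above for the same scalings.

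Markers of the cell types in the heart are given under the reported scaling, where 45.5% of all tested miRNAs were lower and 9.01% higher, and their part in the family's values was not tested. Of 3 fibroblast markers (miR-199a-5p, miR-199a-3p and miR-214), 1 was higher and 0 lower, with a summed log2 level of 10.28 to 10.69 on HHR arrays and 10.20 to 10.50 on NHR arrays. Of 6 tested cardiac muscle markers 4 were lower, namely miR-133b, miR-499, miR-208* and miR-208b-3p (summed log2 level 13.49 to 13.66 in HHR, 13.58 to 13.76 in NHR), while miR-208 was detected on no array. Both endothelial markers (9.91 to 10.07 in HHR, 10.18 to 10.31 in NHR) and both smooth muscle markers (10.30 to 10.38 in HHR, 10.44 to 10.53 in NHR) were lower, as were 2 of 3 tested leukocyte markers, miR-223 (-0.47) and miR-150 (-0.53), with summed levels of 6.52 to 6.74 in HHR and 6.78 to 7.21 in NHR. Of 2 red blood cell markers 0 passed. Liver miR-122 and neuronal miR-124 and miR-9 were detected on no array, and skeletal muscle miR-206 on 2 HHR and 2 NHR arrays.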

How the data were processed

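Total RNA of each heart, 100 ng per the labels' protocols, was hybridised with Cy3 to 1 array per animal. The authors deposited each array's scanner file, in which, per the file headers, Agilent Feature Extraction 10.7.3.1 gave background-subtracted, detrended spot intensity values with no scaling between arrays. Detection, background and outlier flags are other values (0 or 1) from the same deposited output. The headers name the rn4 build; sequences and coordinates were taken from RefSeq on GRCr8, with no conversion. A second deposited file holds 1 log2 value per miRNA and array (column medians 6.13 to 6.15). The submitters' processing notes name limma for it, and its background correction, scaling and centring are unknown here, so it was an alternative only.

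Control and outlier spots were left out, spots were averaged per probe, and each array was scaled to the 75th percentile of 258 probes, those well above background on all 16 arrays. Linear means over a miRNA's probes were raised to a floor of 1.88 and log2 was taken. miRNAs detected by the scanner's flag on at least 4 arrays were tested (233 of 677). limma 3.58.1 in R 4.3.3 fitted 1 mean per group to all arrays, with Benjamini-Hochberg adjustment and a threshold of 0.05, two-sided. Each of the 2 slides held 2 arrays of every group. Scan times went with the slide. The fit was tested on simulated data with independent noise per miRNA and array. No shift of whole arrays was simulated, so that test does not bear on the scaling. The mean spot signal was not used here, so normexp (offset 50, added before scaling) was run on the median signal and local background. Alternatives covered the signal, scaling, floor, filter, moderation, covariates, slide and replicate blocks, and each array left out. Replicates are separate animals. The named miRNAs were the members, their passenger strands, the 3 miRNAs most like each member, and lists for fibrosis and cell types; the family, whose members follow from their names, and the lists were chosen with earlier results of these data known.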

Additional observations from a re-analysis of the deposited data

How the results depend on the processing

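Under the reported scaling 127 miRNAs differed between the strains. This count was 70 with the scanner's total gene signal, 48 without scaling, 25 with spike-in scaling, 15 in the authors' deposited table, 74 with array brightness as a covariate, 37 within slide 1 and 47 within slide 2, and 106 to 128 with 1 array left out. The share of lower calls, 83.5%, was 51.4%, 20.8%, 40.0% and 13.3% under the first 4 of these, 31.0% of 87 calls with median centring, 40.0% of 95 with quantile normalization, 13.5% of 155 when every probe entered the percentile and 98.8% of 165 with a normexp background. The cause of these changes was not tested, and the fits within a slide also had fewer arrays.

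For the strain difference over both sexes, the values with quantile normalization, the percentile of every probe, no scaling, median centring, spike-in scaling and the authors' deposited table were, in this order, 0.033, 0.12, 0.18, 0.010, 0.080 and 0.038 for miR-29a, 0.15, 0.28, 0.34, 0.17, 0.24 and 0.074 for miR-29b, and -0.048, 0.13, 0.19, 0.022, 0.093 and 0.077 for miR-29c. With a normexp background miR-29a (-0.23), miR-29b (-0.19) and miR-29c (-0.18) all passed as lower (limma adjusted p = 0.0273, 0.0283 and 0.00649), as did 163 of all 233 tested miRNAs. The offset was the same on every array before scaling, so after scaling it was smaller on brighter arrays. HHR arrays were brighter on average, and the part of the offset in these calls was not tested. miR-29b was also positive with total gene signal (0.059), with array weights, whose estimation did not converge (0.0027), within slide 1 (0.091) and in its brighter probe alone (0.0059). miR-29c kept its call with total gene signal (-0.090, limma adjusted p = 0.0114) and lost it within slide 1 (-0.11). With 1 array left out the ranges were -0.21 to -0.13 for miR-29a, -0.034 to 0.035 for miR-29b and -0.16 to -0.13 for miR-29c.

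In females, with the same 6 settings in the same order, miR-29a was at 0.10, 0.21, 0.31, 0.10, 0.18 and 0.061 and miR-29c at 0.0020, 0.19, 0.29, 0.083, 0.16 and 0.13. miR-29b in females passed as higher under 2 of the alternatives, at 0.28 and 0.38, while its highest value, 0.49, did not pass. It turned to -0.21 with normexp, -0.0073 with the brightness covariate and -0.082 within slide 2. In males, with the percentile of every probe, no scaling and the authors' table, miR-29a was at 0.026, 0.036 and 0.014 and miR-29c at 0.070, 0.080 and 0.028, with miR-29c at 0.023 with spike-in scaling. miR-29b in males was at 0.034, 0.18, 0.19, 0.067, 0.13 and 0.037 in the order of the 6 settings, and -0.13 to 0.012 with 1 array left out.

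The sex difference of miR-29a turned to 0.015 with total gene signal. That of miR-29b turned to -0.00064 with normexp, -0.070 with spike-in scaling and -0.0030 in the authors' table (-0.012 to 0.058 with 1 array left out). That of miR-29c turned to 0.0037 with total gene signal, 0.016 with quantile normalization, 0.055 with the percentile of every probe, 0.012 with median centring and 0.0033 within slide 2 (-0.027 to 0.0051). The interaction turned with normexp for miR-29a (0.076), miR-29b (0.049) and miR-29c (0.020), and for miR-29a within slide 2 (0.10).

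The ratio of miR-29c to miR-29b passed with total gene signal (-0.15), quantile normalization (-0.20), a floor 4 times lower (-0.15), array weights (-0.17), the slide as a block (-0.15), no sex term (-0.15) and within slide 1 (-0.20), turned to 0.0067 with normexp and 0.0032 in the authors' table, and ranged from -0.17 to -0.13 with 1 array left out. The ratio of miR-29c to miR-29a turned to -0.081 with quantile normalization, -0.031 with the brightness covariate and -0.023 within slide 2 (-0.011 to 0.047 with 1 array left out). The ratio of miR-29b to miR-29a ranged from 0.13 to 0.21 with 1 array left out.

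The labels tie a replicate number to no shared litter or day. Correlations of deviations between arrays of the same number ran from -0.22 to 0.53 (median 0.24 over 24 pairs, 16 of them over 0.1), against a median of -0.13 between other numbers. Numbers 1 and 2 lay on slide 1 and numbers 3 and 4 on slide 2. Pairs of the same number thus always shared a slide and other pairs often did not, so this contrast cannot tell number from slide. For 6 of 16 arrays the mean correlation with the arrays of a number was highest for their own number. With the replicate number as a block, 124 miRNAs were called and the differences were -0.16 for miR-29a, -0.0029 for miR-29b and -0.15 for miR-29c (limma adjusted p = 0.0939, 0.969 and 0.00352). The passenger strands gave no value under any setting, since none was tested.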
